A study of Mus musculus with 48 samples.

Results

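The constitutive m6A regions of the mouse hippocampus were the stretches of transcript in which an m6A peak was called in every one of the 24 animals sequenced. They were chosen by the presence of a peak alone. The peak lists of the 24 animals were joined wherever peaks overlapped by at least 1 bp, which gave 81807 common regions, and the 12187 regions with a peak in all 24 animals were kept (14.9%). The other 69620 regions had a peak in 1 to 23 animals. Because the presence of a peak selected the members, a high fold enrichment or a wide region is partly what the choice required, and members are set beside the other regions for description only on those measures.

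Methylated RNA immunoprecipitation and sequencing (MeRIP-seq) had been performed on hippocampal total RNA of male mice on a C57BL/6 background, with 3 animals per condition and an input library beside each of the 24 m6A-IP libraries. The groups were heterozygous HdhQ7/Q111 knock-in mice (KI) trained at 8 months, HdhQ7/7 wild-type mice (WT) trained at 8 months, KI and WT naive at 8 months, KI and WT trained at 5 months, and KI and WT naive at 5 months. The KI mouse carries an expanded CAG repeat in 1 copy of its own huntingtin gene and is a model of Huntington's disease. Trained mice had been through the training session of the object location task 30 min before tissue was taken, and naive mice had not. Only the peak lists were used here. They hold neither the depth of each library, which the methods give as 1 approximate figure for all, nor the RNA level of each gene.

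N6-methyladenosine (m6A) is the commonest internal modification of mRNA. It is written on adenosines of a short sequence context by a nuclear complex around Mettl3 and Mettl14, removed by Fto and Alkbh5, and read by YTH-domain proteins that change the splicing, decay and translation of the transcript. In mammalian mRNA it is known to gather in long internal exons and around the stop codon, and in brain many synaptic transcripts carry it.

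The consensus of m6A is written DRACH: A, G or T, then A or G, then AC, then A, C or T, with the methylated A in the middle. GGAC is its best known core. The following windows of 29 nt, from the mm9 genome and read on the strand of the gene, are from the members with the highest fold enrichment whose summit lay in a single gene. Each was taken around the GGAC nearest to the median summit in the same exon, and capitals mark it. Where no GGAC lay close to the summit, the nearest DRACH word was taken instead. Another DRACH word can therefore lie nearer to the summit than the GGAC shown, which in Zfp449 lay 47 nt from the summit. They are from the members with the highest enrichment among those with a summit in a single gene, but not every such member is shown. Trim36 (median 15.1, CDS) ranked above Zfp449, Antxr2 and Osr1 and has no window here. Members without a summit in a single gene reached 17.7 in the CDS, 16.9 in introns and 16.2 outside protein-coding genes.

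Egflam, chr15:7157406-7157434, minus strand: ttaggaagcattGGACtttgttgttcaac

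Ror1, chr4:100115010-100115038, plus strand: agccaggaaataGGACgcattgtgggatt

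Foxf2, chr13:31722591-31722619, plus strand: aggaactgcaacGGACtcacactgtgcac

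Tcf15, chr2:151974659-151974687, plus strand: ggagagccacaaGGACccatctagccatc

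Osr1, chr12:9587630-9587658, plus strand: gcggctcccctaGGACgcggctaaaactt

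Zfp449, chrX:53616067-53616095, plus strand: aacatccccagaGGACttacagacagacc

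Antxr2, chr5:98314096-98314124, minus strand: tgttatagacaaTGACCagtggccgggtc

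The motif was GGAC in the first 6 of these windows. In Ror1 and Osr1 a G followed it, so that these did not complete a DRACH word. Antxr2 had a DRACH word other than GGAC, as no GGAC lay in the exon close to the summit. Egflam, Ror1, Foxf2, Tcf15, Osr1 and Antxr2 had the summit in the 3′UTR, and Zfp449 in the CDS of its last exon. Members of 6 gene lists are shown next in the same form, 1 from each list. All 6 windows hold GGAC. Other members of these lists, among them Ythdf3, Klf10, Homer1, Nr4a2, Ash1l, Hivep2, Mll3, Ank3 and Ank2, had another DRACH word and no GGAC in the exon close to the summit. The printed windows therefore do not show how common GGAC was.

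Ythdf2, chr4:131742771-131742799, minus strand: cttatcctaagaGGACacgatgacctgca

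Dusp6, chr10:98727425-98727453, plus strand: gggctgtgccaaGGACtcgaccaacttgg

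Nlgn2, chr11:69639094-69639122, minus strand: ctattacaagcgGGACcggcgccaggagc

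Bptf, chr11:106993322-106993350, minus strand: cccctcccgcccGGACcccggcgccctcc

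Fat1, chr8:46136304-46136332, plus strand: acccccaccagaGGACttccctgcacccg

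Dst, chr1:34237121-34237149, plus strand: aggggctccgctGGACagggagagcagcc

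Ythdf2 is itself an m6A reader, Dusp6 a phosphatase of the MAP kinases and an immediate-early gene, and Nlgn2 the neuroligin of inhibitory synapses. Bptf is a subunit of a chromatin remodelling complex, Fat1 a giant cadherin, and Dst the cytoskeletal linker dystonin. The windows of Ythdf2, Dusp6, Bptf, Fat1 and Dst held GGAC within 12 nt of the median summit, and that of Nlgn2 at 24 nt. In Bptf and Nlgn2 the median summit lay outside the stretch covered by a peak in all 24 animals (chr11:106992762-106992832 and chr11:69638507-69638709). These windows thus do not show where all animals shared a peak.

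The 2 intronic members among the 10 of highest fold enrichment in a single gene are shown with the longest run of purines near the summit in capitals.

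Dlgap1, chr17:71002356-71002384, plus strand: GAGGAAGAGGAGGAGGAGGAGAAAGAGAA

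Lrrc39, chr3:116277898-116277926, plus strand: tattcccctcctGGGAAcaaacaccctcc

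The printed part of the Dlgap1 window was purine throughout, within a run of 98 purines, and 99.01% of the bases within 50 bp of its summit were A or G. The Lrrc39 window held 20.8% purines on the strand of the gene and its longest run was 5 bases. In both regions the median summit lay outside the stretch covered by a peak in all 24 animals (chr17:71001499-71001766 for Dlgap1 and chr3:116279336-116279519 for Lrrc39), so these windows do not show where all animals shared a peak. In Antxr2 the median summit lay just beyond the end of the shared stretch.

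A pair of libraries stood apart. Of the 3030 regions called in 23 animals, 977 were missed only by 1 of the WT naive mice of 5 months, here called mouse A, and 1111 only by 1 of the WT trained mice of 5 months, here called mouse B, while the other 22 animals together accounted for 942. Of the regions that mouse A alone lacked 25.4% lay in the 5′UTR, and of those that mouse B alone lacked 2.07%, against 3.09% of the members. Without both animals, 14451 regions were called in all of the other 22. Across the 24 animals the lists held 22601 to 57293 peaks (median 33826), and 28.4% to 63.6% of the peaks of an animal (median 42.4%) lay in the constitutive regions. Among the marker genes of other tissue, Ttr and Aqp1 of the choroid plexus had no region in any animal, and Kl and Prlr were the 2 of 10 choroid plexus genes with a constitutive region.

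**Figure D1:**
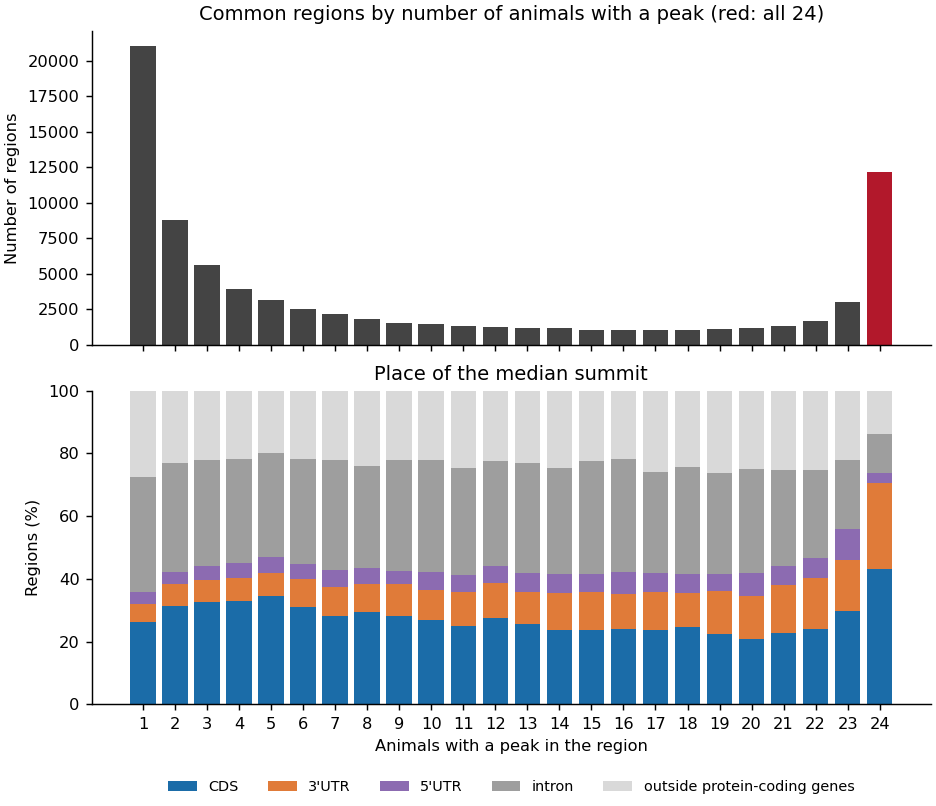
Number of common regions (upper plot) and their division by the place of the median summit (lower plot, percent), by the number of animals with a peak in the region. The 12187 regions called in all 24 animals form a separate bar at the right, 43.1% of them in the CDS and 27.6% in the 3′UTR.

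The members were a small part of the regions and a large part of the peaks. They held 361809 peaks, which was 42.2% of all peaks, and 16.0 of the 41.0 Mb covered by any region (39.05%). The median member was 1074 bp wide (lowest 303 bp, highest 13141 bp), against 755 bp for regions called in 23 animals and 289 bp for all regions called in 1 to 23. Exactly 1 peak in every animal was found in 6096 members (50.02%), and the other 6091 had at least 2 peaks in some animal.

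A peak in every animal need not mean the same bases in every animal. In 11672 members (95.8%) there was a stretch covered by a peak in all 24, with a median of 276 bp over all members, and in 515 there was none. The shared stretch had a median of 341 bp in the CDS, 308 bp in the 3′UTR, 145 bp in introns and 170 bp outside protein-coding genes, and its quartiles were 110 and 364 bp in the 5′UTR. The interquartile range of a member's summits over the 24 animals had a median of 81.25 bp, and the full range had a median of 348 bp and an upper quartile of 830 bp.

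The longest shared stretch, of 3495 bp, was placed in an intron of Trappc9, a subunit of a vesicle trafficking complex. Peaks have no strand, and an intron can hold a noncoding RNA, so the transcript that carried this stretch is uncertain. The next longest were in regions with the median summit in the CDS of Slitrk3 (3287 bp), Pcdh9 (3105 bp), Nrip1 (3009 bp) and Slitrk1 (2991 bp). Slitrk1 and Slitrk3 are synaptic adhesion proteins, Pcdh9 is a protocadherin and Nrip1 a nuclear receptor corepressor. The Slitrk1 region chr14:109309621-109313520 had its summit in a single exon of 4249 bp, that of Nrip1 in a last exon of 7616 bp, and that of Pcdh9 in an exon of 3036 bp, which was shorter than the shared stretch. The widest regions were in Dmd (13141 bp, intronic, shared stretch 354 bp), Plec (11039 bp, shared 842 bp) and 2310011J03Rik (8888 bp, shared 1516 bp), so that width and shared length did not go together in them.

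By the position of the median summit, 5251 members lay in the CDS (43.1%), 3366 in the 3′UTR (27.6%), 377 in the 5′UTR (3.09%), 1504 in introns (12.3%) and 1689 outside protein-coding genes (13.9%). The Wilson 95% intervals, which cover counting error only, were 42.2% to 44.0% for the CDS and 26.8% to 28.4% for the 3′UTR. Of the regions called in 1 to 23 animals, 28.2% lay in the CDS, 8.53% in the 3′UTR, 4.85% in the 5′UTR, 34.1% in introns and 24.2% outside. Constitutive regions thus lay more often in the CDS and the 3′UTR and less often in introns than the others. The share in the 5′UTR rested on a single animal, being 4.75% without mouse A and 4.57% without mice A and B. Without both animals the CDS held 41.0%, the 3′UTR 25.4%, introns 13.3% and places outside protein-coding genes 15.7%.

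The 3′UTR share tended to be larger in regions called in more animals, at 5.82% in 1 animal, 11.3% in 12 and 16.2% in 22, and the step to the members was larger than those before it. The CDS share did not follow this order and was 26.2% in 1, 34.5% in 5 and 20.8% in 20 animals. Among regions called in 23 animals the CDS held 29.9%, the 3′UTR 16.1%, the 5′UTR 9.77%, introns 22.1% and places outside protein-coding genes 22.1%. Most of these regions were missed by mouse A or mouse B alone. Just outside the threshold, the region of highest fold enrichment was in the CDS of E330016A19Rik (median 15.01 over 23 animals, no peak in mouse A). The next 4 lay in no protein-coding gene, with 14.6, 14.3, 13.7 and 13.5, and each lacked a peak in mouse A or B. Just inside it, the lowest median fold enrichment among members was 1.62.

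Within mRNAs the constitutive regions gathered around the stop codon. Of the 8925 exonic members that could be placed on a coding transcript, 2946 had the median summit within 200 nt of the stop codon (33.0%) and 4729 within 500 nt (53.0%), against 14.2% and 28.4% of the 28809 other exonic regions. The summit lay in the last or only exon in 66.9% of the members and 28.1% of the others. Members in the 3′UTR had their summit a median of 220 nt after the stop codon, and 73.1% were within 500 nt of it, against a median of 548 nt and 48.6% for the others.

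Members in internal exons lay almost wholly in long exons. Of the 2328 CDS members in an internal exon, 2073 were in an exon of at least 400 bp (89.0%), and the median exon was 785 bp. For the other regions these values were 1398 of 16051 (8.71%) and 169 bp. Of all 175545 annotated internal coding exons 3.13% reached 400 bp, with a median of 124 bp. The step was already visible between neighbours on the scale of recurrence: regions called in 23 animals were in an exon of at least 400 bp in 61.8%, and those called in 12 to 22 animals in 26.0%. Peaks were called on the genome, so an exon limits the length of a peak, and the part of that limit in these shares was not tested.

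**Figure D2:**
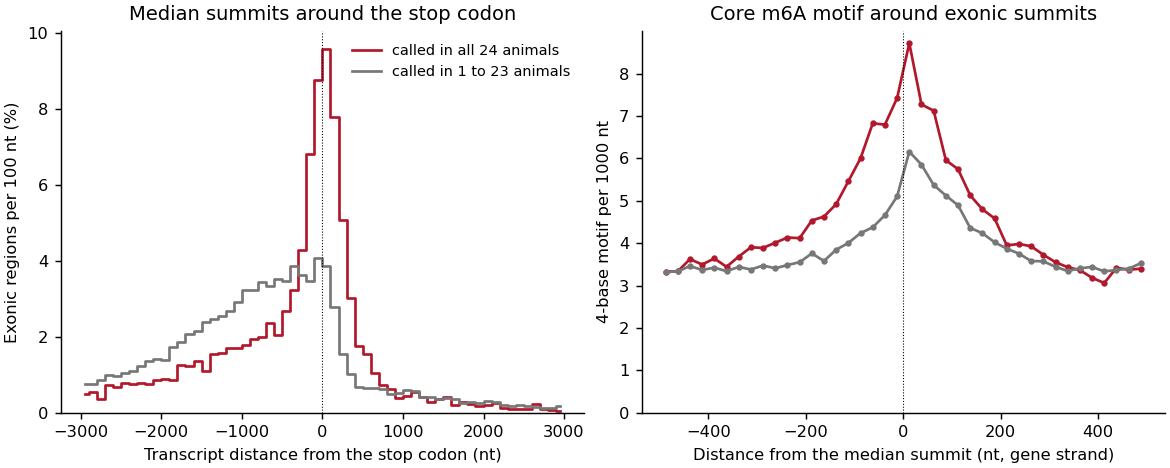
Left, percent of exonic regions per 100 nt of transcript by the distance of the median summit from the stop codon (negative values lie before it). Right, GGAC per 1000 nt on the strand of the gene by distance from the median summit. Red, regions called in all 24 animals; grey, called in 1 to 23. The members peak at the stop codon (9.57% in the first 100 nt after it) and hold 8.72 GGAC per 1000 nt in the 25 nt after the summit, against 6.16 in the others.

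GGAC was present on the strand of the gene within 50 bp of the median summit in 4717 of 9538 members that lay in exactly 1 gene (49.5%, Wilson 95% interval 48.5% to 50.5%), in 35.5% of the regions called in 1 to 23 animals and in 37.8% of all such regions. On the opposite strand of the same windows it was found in 24.03% of the members, and in windows moved by 1000 bp in 25.4%. GGACT was in 19.4% of the members and 11.2% of the others. DRACH, which contains many words, was in 90.8% of the members and 85.0% of their moved windows, which is a smaller gap than that of GGAC.

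The motif followed the exons. GGAC lay at 52.3% of the members in the CDS, 53.1% in the 3′UTR and 52.3% in the 5′UTR, against 40.9%, 41.1% and 43.1% of the other regions in those places. In introns it lay at 30.6% of the members and 28.7% of the others, and DRACH was less common there than in the moved windows (70.3% and 84.1%). Windows in no annotated gene have no strand. Either strand held GGAC in 53.6% of the 1371 such members and 43.5% of the 14874 other such regions. Counted in the same way, the share was 65.5% of exonic and 38.9% of intronic members.

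Intronic members were rich in purines. Their windows of 50 bp on each side of the summit held a median of 61.4% A or G on the strand of the gene, with quartiles of 51.5% and 84.2%, against 50.5% in the windows moved by 1000 bp. A run of at least 15 purines was present in 392 of 1369 (28.6%) and in 2.92% of the moved windows. Other intronic regions held a median of 59.4% and a run in 24.7%. In the CDS a run was found in 4.55% of the members, in the 3′UTR in 4.01% and in the 5′UTR in 5.17%. Such runs were thus about as common in intronic regions called in fewer animals, and rare in exons.

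The 10388 members that fell in exactly 1 protein-coding gene were spread over 7079 genes, which was 31.6% of the 22380 annotated protein-coding genes and 53.3% of the 13293 genes with a region in any animal. A further 110 members were tied between overlapping genes and were assigned to none. A single member was found in 4957 genes (70.0%), 2 in 1438 genes and 3 or more in 684. In 758 genes the CDS and the 3′UTR each held a member, and in 401 genes members were intronic only. Genes with longer exonic sequence held a member more often: 35.7% of the genes in the lowest quartile of exonic length (up to 2500 bp), then 50.1% and 58.3%, and 68.9% in the highest (from 5823 bp). Input levels were not in the files, so the part that RNA level had in whether a gene held a member was not tested.

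The highest counts were in long or clustered genes. Pcdhgc5 held 23 members of its 33 regions, Gm20388 19 of 100 and Pcdha11 15 of 29. The protocadherin gene clusters share their constant exons between many transcripts, and all members of Gm20388 were intronic, so the gene these reads came from is uncertain. Magi2, a scaffold of excitatory and inhibitory synapses, and Lrrtm4, a postsynaptic adhesion protein, held 12 each, 10 of them intronic in both genes. Pclo, the giant active zone protein piccolo, also held 12, of which 8 were in the CDS. Csmd1 held 11, and Hs6st3, Nrxn3, Nlgn1 and Kcnip4 held 10 each. Kcnip4 had all 10 in introns, whereas Nlgn1 had 3 in the CDS and Nrxn3 2.

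Neuronal gene groups differed in how many of their genes held a constitutive region. Of the 24 glutamate receptor genes, 22 held a constitutive region, with 66 members in all and high counts in Grin2a (9), Grin2b (5) and Grm7 (5). Grik5 and Grin1 had none and were called in 23 animals. Of the 36 postsynaptic scaffold and adhesion genes 31 held one, 61 of their 111 members being intronic, and of the 42 genes of the presynaptic release machinery 29 held one (69.05%). Voltage-gated channels reached 36 of 39, led by Kcnd2 (7) and Cacnb2 (6). GABA receptor and synapse genes reached 12 of 21 (57.1%), with 14 members, and Gabra2 was called in 23 animals. Every gene of these lists had a region in some animal, so the share to set beside them is the 53.3% of all genes with a region, or 31.6% of all annotated genes. The lists hold long genes (median exonic length 6182 bp for the glutamate receptors, 8389 bp for the channels, 5887.5 bp for the presynaptic and 5160 bp for the GABA genes). The presynaptic list was thus close to the 68.9% of the longest quartile and the GABA list close to the 58.3% of the quartile below it.

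Among immediate-early genes, whose mRNAs rise within minutes of neuronal activity, 26 of 33 held a constitutive region (78.8%) although their median exonic length was 3060 bp. All genes with a region in that quartile of length stood at 50.1%. Their 32 members were 21 in the CDS, 10 in the 3′UTR, 1 in the 5′UTR and 0 in introns. Fos, Fosb, Jun, Egr1 to Egr4, Arc, Npas4 and Bdnf each held 1, and Klf10, Homer1, Dusp6 and Nr4a2 held 2. The region of Npas4 had a median fold enrichment of 7.38, that of Bdnf 4.59, that of Fos 4.27 and that of Arc 3.05. The Arc region was covered by a peak in all 24 animals over 1111 bp, whereas the Fos region had no stretch shared by all.

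Chromatin and transcription regulators had the highest share of the lists made, at 44 of 46 genes (95.7%), with 132 members of which 98 were in the CDS. Bptf and the methyltransferase Ash1l held 6 each, and Hivep2 and Mll3 held 5. Smarca4 and Chd3 held none. Axon guidance and cell adhesion genes reached 43 of 45, with Fat3 at 7, Fat1 at 6 and Epha6 at 5, and Slit1 and Unc5a held none. Microtubule motors and cytoskeletal genes reached 19 of 28 (67.9%), led by Ank3 (9), Dst (8) and Macf1 (7), and 4 further genes of this list were not matched in the annotation. The lists hold long genes, with median exonic lengths of 11160 bp (chromatin), 8947 bp (axon guidance) and 7268.5 bp (cytoskeleton). All genes with a region stood at 53.3%, and those in the longest quartile at 68.9%. The cytoskeletal share was thus close to that of long genes.

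The m6A machinery was itself among the genes with peaks. Of its 24 genes 14 held a constitutive region, with 23 members, 19 of them in the CDS. These were 66.7% of its genes with a region, against 53.3% of all genes with a region and 58.3% in the quartile of its median exonic length (5119 bp). Zc3h13, a subunit of the writer complex, held 6, and Wtap, its adaptor, and the readers Ythdf2 and Ythdf3 held 2 each. The eraser genes Fto and Alkbh5 held 1 each. The catalytic subunit Mettl3 had a region in only 1 animal at most, and Mettl14 in 21.

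Groups of housekeeping genes were nearly empty. Of 48 genes of oxidative phosphorylation 1 held a constitutive region, in an intron of Ndufs4, and 19 had a region in any animal. Of 56 cytoplasmic ribosomal protein genes 1 was counted and 7 had a region in any animal. That gene was Rpl24, and both of its members (chr16:55990290-55991161 and chr16:56006792-56007618) lay beyond the end of its main transcript Rpl24-001 at position 55971548, in another model of the gene that begins at 55973917 and does not overlap it. Among the 56 listed genes, the ribosomal protein mRNAs themselves therefore held no constitutive region that was assigned to 1 gene. These transcripts are abundant in every cell, and the median exonic length of those with a region was 1655 bp for oxidative phosphorylation and 2697 bp for ribosomal proteins, against 35.7% and 50.1% of all genes with a region that held a member in those quartiles of length.

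**Figure D3:**
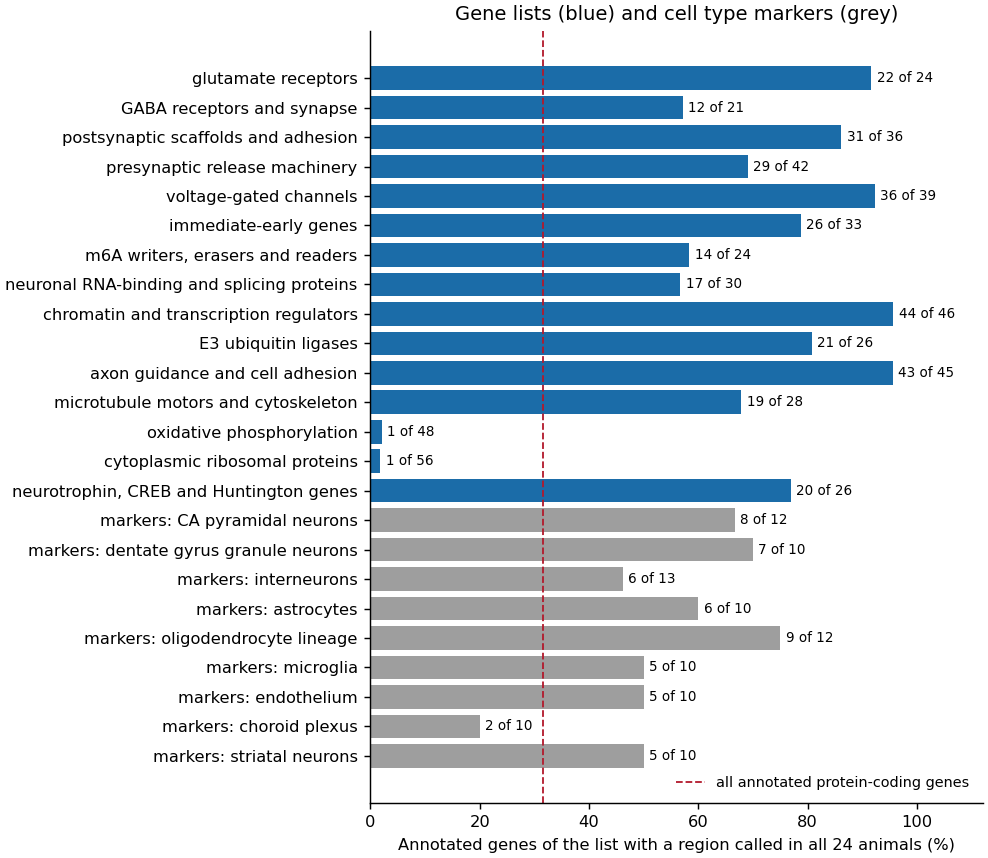
Percent of the annotated genes of each list that hold a region called in all 24 animals, with the counts at the bar ends. Blue, gene lists; grey, cell type markers; dashed line, all annotated protein-coding genes (31.6%). Chromatin regulators (44 of 46) and axon guidance genes (43 of 45) lie highest, and oxidative phosphorylation (1 of 48) and ribosomal proteins (1 of 56) lowest.

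Markers of the cell types of the hippocampus were present for each type. A constitutive region was held by 8 of 12 genes of CA pyramidal neurons, 7 of 10 of dentate granule neurons, 6 of 13 of interneurons, 6 of 10 of astrocytes and 9 of 12 of the oligodendrocyte lineage. Microglia and endothelium had 5 of 10 each. As shares of the marker genes with any region these were 54.5% for interneurons, 55.6% for microglia and endothelium and 60.0% for astrocytes, near the 53.3% of all genes with a region, and 72.7% to 87.5% for pyramidal neurons, granule neurons and the oligodendrocyte lineage. Mpped1, Prox1 and Lct marked the principal neurons, Gja1 and Aqp4 the astrocytes, Pdgfra and Mbp the oligodendrocyte lineage and Cx3cr1 and P2ry12 the microglia. Of 10 striatal genes 5 held one, among them Drd1a, Drd2 and Adora2a. In bulk tissue, fewer cells of a type and less RNA per cell cannot be told apart.

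Outside protein-coding genes, 291 members lay in exactly 1 gene of another type, of which 183 were in lincRNAs, 72 in processed transcripts and 36 in pseudogenes. 4933406I18Rik and Gm10649 held 5 each, Gm2824 and Wnk3-ps 4, and Tug1, a well studied long noncoding RNA, and Dlx6os1 3. A further 10 lay in more than 1 such gene, and 1388 lay in no annotated gene. Of these 1388, 331 were within 5 kb downstream of a protein-coding gene (23.8%), against 13.5% of the 15079 other regions in no gene. The 5 highest by fold enrichment had medians of 15.9 to 16.2 over the 24 animals.

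Fold enrichment, the signal of the IP over the input of the same animal at the highest peak of the region, had a median of 5.67 over the members (lowest 1.62, highest 21.4), and of 4.45 over regions called in 1 to 23 animals. By place it was 5.26 in the CDS, 5.33 in the 3′UTR, 5.13 in the 5′UTR, 6.09 in introns and 7.47 outside protein-coding genes. Members in introns and outside protein-coding genes thus had the higher medians, and their shared stretches were shorter than those of the CDS and 3′UTR.

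Egflam, an extracellular matrix protein of synapses in the retina, carried the highest value. Its region chr15:7157020-7157792 in the last exon had a summit 248 nt after the stop codon. In the 12 KI animals it was 6.58 at the lowest, 20.7 at the median and 30.7 at the highest, and in the 12 WT animals 11.8, 21.8 and 30.4. KI and WT overlapped over nearly the whole range. Ror1, a receptor tyrosine kinase of Wnt signalling, ranged from 8.65 to 24.9 with a median of 17.4 at a summit 160 nt after the stop codon.

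The next members whose summit lay in a single gene were Lrrc39 (median 15.8, intronic), the transcription factors Foxf2 (15.5), Tcf15 (15.2) and Osr1 (14.8), the ubiquitin ligase Trim36 (15.1), the zinc finger gene Zfp449 (15.1), the anthrax toxin receptor Antxr2 (14.8) and the postsynaptic scaffold Dlgap1 (14.7, intronic). In each of these 8 the highest animal was at least 20.7 and the lowest at most 10.01. With each animal centred on its median over the members, the standard deviation of log2 fold enrichment ran from 0.373 (Tcf15) to 0.610 (Foxf2). The median of all members was 0.386, so the spread was wider than that in all but Tcf15.

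The 5 steadiest members were of low enrichment, with medians of 1.66 to 3.69. After each animal was centred on its median over the members, the standard deviation of log2 fold enrichment over the 24 animals had a median of 0.386. It was smallest in the 3′UTR of Gria1, an AMPA receptor subunit, at 0.106, and then in Trank1 (0.107), the desaturase gene Scd2 (0.112), the kinase anchoring protein gene Akap5 (0.114) and Camk2n1, an inhibitor of CaMKII (0.114). The Gria1 region was 2.51, 2.77 and 3.19 at the lowest, median and highest of the KI animals, and 2.06, 2.52 and 2.90 in the WT animals. The largest values, 0.887 to 0.930, were all outside protein-coding genes. Over the quartiles of fold enrichment from low to high the median standard deviation was 0.325, 0.376, 0.409 and 0.437.

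Pairs of animals ranked the members alike to a moderate degree. Spearman's rho of fold enrichment over the members was 0.622 at the median of the 24 pairs within a condition (0.570 to 0.776) and 0.638 at the median of the 252 pairs between conditions (0.488 to 0.787). These are correlations across regions, which are not independent replicates, and the median of the pairs within a condition was not above that of the pairs between conditions.

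The conditions were then compared over animals. The median log2 fold enrichment of the members ranged from 2.39 to 2.60 in KI animals (median 2.4997) and from 2.28 to 2.55 in WT animals (median 2.48), and the ranges overlapped. The means were 2.495 ± 0.07 in KI and 2.45 ± 0.09 in WT (SD, n = 12 each), a difference of 0.05 (exact permutation test within training and age, two-sided, p = 0.165, adjusted over 9 tests 0.297). Trained and naive animals averaged 2.47 ± 0.10 and 2.47 ± 0.07 (adjusted p = 0.979, exact permutation test). Animals of 8 months averaged 2.501 ± 0.05 and those of 5 months 2.44 ± 0.10 (difference 0.06, adjusted p = 0.167, exact permutation test). None of these differences passed the adjusted test, and in each the ranges of the animals overlapped.

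The median length of an animal's peaks within the members averaged 601 ± 123 bp for KI, against 600 ± 124 bp for WT animals (SD, n = 12 each). Trained mice averaged 604 ± 110 bp and naive mice 597 ± 135 bp, and mice of 8 months 592 ± 135 bp and those of 5 months 610 ± 110 bp (adjusted p = 0.979 for each of the 3, exact permutation test). Peak length went with a property of the list: the shortest peak of an animal was 48 to 274 bp long, and over the 24 animals it correlated with the median peak length in the members (Pearson's r 0.838, Spearman's rho 0.817, permutation p = 1e-05 each, the smallest that the permutations can give). Without the 2 animals farthest from the median, r was 0.814. This was the only such relation tested.

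The share of the peaks of an animal that lay in the members is given as a description with no test, because the rule itself required a peak of every animal in every member. The peaks in the members numbered 13068 to 18086 per animal, against 22601 to 57293 peaks in the whole lists, so the length of the list varied more than the number of its peaks in members. It was 40.3 ± 5.22% in KI and 46.5 ± 7.56% in WT, a difference of -6.23 points. It was 45.9 ± 7.42% in trained and 40.9 ± 6.07% in naive animals, and 40.8 ± 5.595% at 8 months and 46.1 ± 7.70% at 5 months. KI mice had a median of 37268 peaks in all and WT mice 32712, trained mice had 32699 and naive mice 35324, and mice of 8 months had 37590 and mice of 5 months 32599. The shortest peak of a list moved in the opposite direction to the number of peaks, with medians of 154.5 bp in KI and 188.5 bp in WT, 175.5 bp in trained and 154.5 bp in naive animals, and 150.0 bp at 8 months and 192.0 bp at 5 months. Its part in the number, width and share of peaks was not tested. Without mice A and B the differences in the share were -4.25, 4.16 and -3.17 points.

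**Figure D4:**
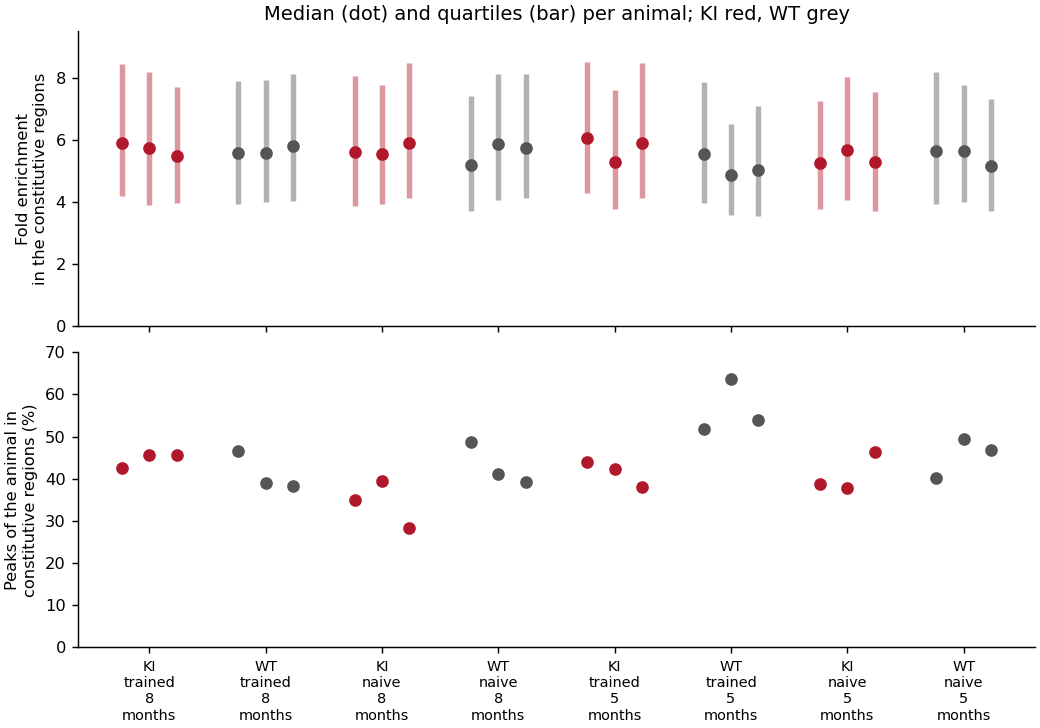
Upper plot, median (dot) and quartiles (bar) of the fold enrichment of the members in each of the 24 animals. Lower plot, percent of the peaks of each animal that lie in the constitutive regions. Red, KI; grey, WT; 3 animals per condition. Medians lie between 4.87 and 6.06 in every animal, and the share between 28.4% and 63.6%.

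Region by region, limma on log2 fold enrichment called no member in any of the 13 contrasts at an adjusted p of 0.05. The test covered the 18394 regions in which every condition had 2 or 3 animals with a peak, all 12187 members and 6207 others, and the percent called was 0 in each contrast and each direction. At an unadjusted p under 0.05 there were 465 members for KI minus WT over all conditions (3.82%, against 3.91% of all regions tested), 427 for trained minus naive (3.50% against 3.82%) and 912 for 8 minus 5 months (7.48% against 7.69%). In the 4 contrasts of KI with WT within a condition, the 4 of training within a genotype and age, and the 2 differences between the training changes of KI and WT, members at an unadjusted p under 0.05 numbered 363 to 688 (2.98% to 5.65%). Of all regions tested the share in these contrasts was 3.01% to 5.53%, so members were near the background. The median standard error of a member was 0.16 log2 over all conditions, 0.31 within a condition and 0.44 for a difference of changes. The median size of a member's difference was 0.10 for genotype, 0.10 for training and 0.12 for age.

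The members with the smallest p of each contrast are given as a description, since they were picked for it. March11, a ubiquitin ligase of the MARCH family, was the closest to the threshold. Its CDS region chr15:26338723-26339346 had a fold enrichment of 2.76, 5.23 and 7.46 (lowest, median, highest) in the 12 trained animals and 6.14, 9.52 and 13.3 in the 12 naive animals. Trained animals lay below naive ones with an overlap between 6.14 and 7.46. The log2 difference was -0.92 (SE 0.15, adjusted p = 0.0606, limma).

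Chd8, a chromatin remodeller linked to autism, was next. In its CDS region chr14:52856448-52857597 fold enrichment was 8.51, 8.86 and 7.94 in the KI trained animals of 8 months and 2.58, 4.18 and 2.56 in the KI naive animals of 8 months. The 3 trained animals lay above all 3 naive ones (log2 difference 1.48, SE 0.27, adjusted p = 0.0938, limma). At 8 months the WT trained animals had 7.46, 7.08 and 4.17 and the WT naive animals 6.73, 6.55 and 7.39, which overlapped. For age and genotype over all conditions the member lay outside protein-coding genes. At chr7:117264709-117266527 the median was 6.871 at 8 months and 14.22 at 5 months (log2 difference -0.94, SE 0.18, adjusted p = 0.187, limma). At chr6:86552550-86553087 it was 4.437 in KI and 6.929 in WT (-0.65, SE 0.14, adjusted p = 0.77, limma). In both the ranges overlapped.

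Rest, the repressor of neuronal genes outside neurons, had 12.6, 15.8 and 13.97 in the KI naive animals of 8 months and 5.94, 3.79 and 5.81 in the WT naive animals of 8 months at chr5:77696714-77697672. The groups did not overlap (log2 difference 1.44, SE 0.28, adjusted p = 0.259, limma). Grin3a, an NMDA receptor subunit, had the smallest p of the difference between training changes at 8 months. Its region was at 6.07, 6.80 and 5.89 in KI trained, 8.82, 11.3 and 11.9 in WT trained, 9.28, 9.22 and 8.72 in KI naive and 4.10, 6.19 and 7.03 in WT naive animals. The training change of KI minus that of WT was -1.44 (adjusted p = 0.339, limma).

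Syn3, which encodes synapsin III, was at 2.77, 2.18 and 4.33 in the WT trained animals of 8 months and 7.65, 6.17 and 9.32 in the WT naive ones, with no overlap (log2 difference -1.37, adjusted p = 0.517, limma). Rfesd was at 4.50, 5.59 and 6.84 in the KI trained animals of 8 months and 14.9, 15.9 and 12.6 in the WT trained ones (-1.39, adjusted p = 0.646, limma). Gpr153, an orphan receptor, was at 20.4, 23.04 and 16.3 in the KI trained animals of 5 months and 7.47, 9.73 and 6.25 in the WT trained ones (1.20, adjusted p = 0.999, limma). Gypc was at 3.52, 4.27 and 4.59 in the KI naive animals of 5 months and 11.9, 9.70 and 13.2 in the WT naive ones (-1.47, adjusted p = 0.999, limma). Groups of 3 that lie wholly apart were thus not called when 18394 regions were tested together.

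**Figure D5:**
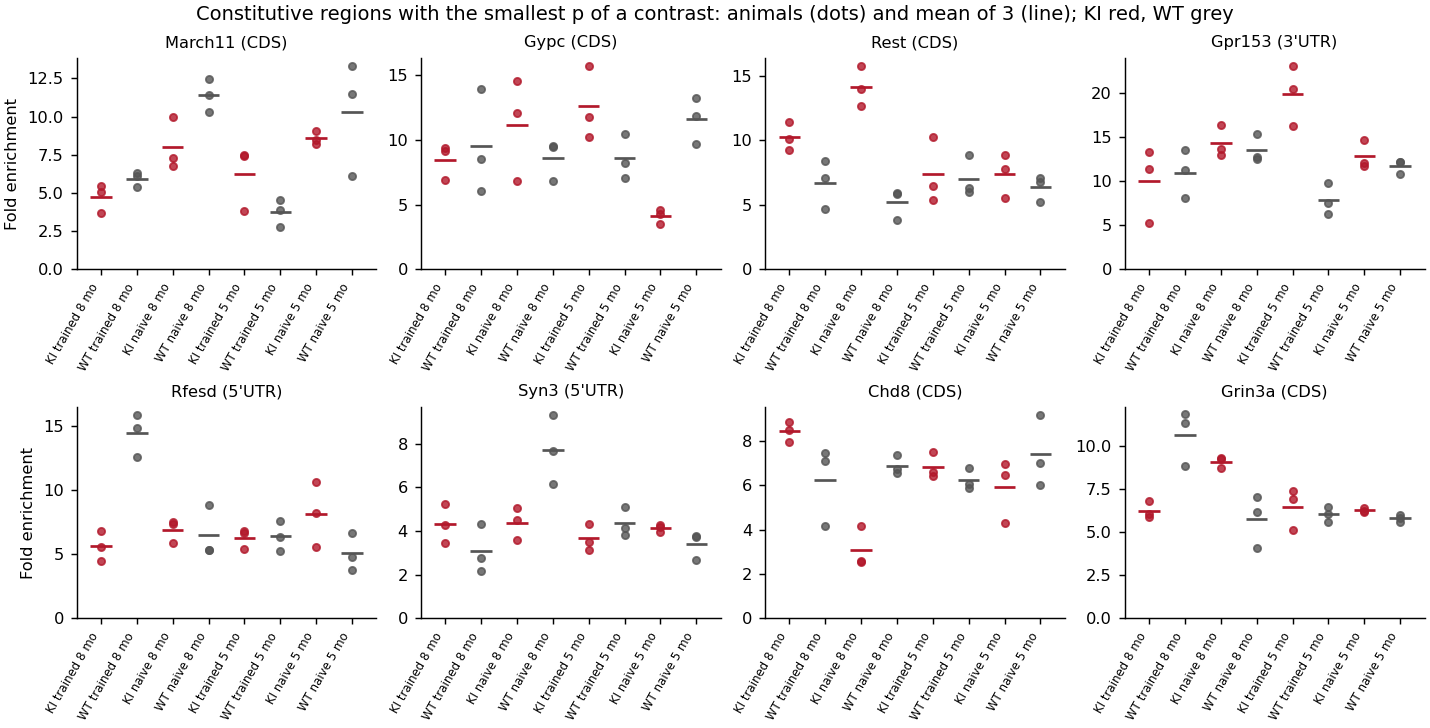
Fold enrichment of 8 constitutive regions in each animal (dots) with the mean of the 3 animals (line), by condition. Red, KI; grey, WT; mo, months. The regions are those with the smallest p of a contrast, and none passed an adjusted p of 0.05; March11 lies lower in trained than in naive animals at both ages.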

How the data were processed

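Each m6A-IP library was compared with the input of the same animal. According to the methods and the submitters' processing notes, the authors aligned reads to mm9 with STAR 2.7.3a, kept uniquely mapped reads outside repeats and called narrow peaks per animal with MACS2 2.2.6 (DiffBind 2.8.0 and bedtools are also listed). The deposited lists give for each peak its position, the fold enrichment of IP over input at the summit (a ratio) and the q-value as −log10 q, at least 1.30 in every list as deposited. The position columns are of the other kind, with no strand. The peak lists hold no read numbers, and depth and input levels were not analysed here, so no interval from depth is given. The 10 tables of the authors' differential comparisons hold their fold changes and p-values and were not used.

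Peaks of the 24 lists were merged where they overlapped by at least 1 bp. The value of an animal in a region was its highest fold enrichment there, and the median of the summits placed the region on GENCODE vM1 genes, where CDS took precedence over 3′UTR, then 5′UTR, then intron. Genes of other types were used only where no protein-coding gene held the summit. An exon of a noncoding gene or transcript inside a protein-coding gene was thus counted as intron. Gene strand came from the annotation. Of the members, 17 lay on contigs with no sequence in the genome used. GGAC, GGACT and DRACH were searched on both strands, and a window reached 50 bp to each side of the summit. Where several annotated genes shared a symbol of a list (10 symbols), they were counted together.

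Log2 fold enrichment, centred on each animal's median over the members, was fitted with limma 3.58.1 (R 4.3.3) in 1 model of the 8 conditions with 13 contrasts, with Benjamini-Hochberg adjustment over 18394 regions. Missing values were left out of the fit of a region. Values per animal were compared with two-sided exact permutation tests within the other factors, adjusted over 9 tests, of which the 3 on the share of peaks in members are not quoted because the rule used peak presence. The scripts were tested on simulated data. Python 3.11.15, numpy 2.4.6, pandas 2.3.3, scipy 1.17.1, pysam 0.24.0 and matplotlib 3.10.9 were used. WT and KI mice were bred as littermates. Which animals shared a litter is not given in the sources used here, and each animal is taken as a separate replicate.

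The members and lists were chosen with earlier results of these data known. Named in the text are the 10 members with the highest median fold enrichment in 1 gene and the 5 highest outside protein-coding genes, the 10 genes with most members, the longest, widest, steadiest and most variable members, up to 4 genes per list, the smallest p of each contrast, and the regions just outside the rule. Some further genes of the lists (among them Fos, Arc, Npas4, Bdnf, Fto, Alkbh5, Mettl3 and Htt, and cell type markers) were added after their values were seen. Some genes that the rule selects are not reported here. Alternatives concerned the q-value, the cover and number of peaks, the placing point and order, the motif window, centring, the regions tested and the animals.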

Additional observations from a re-analysis of the deposited data

How the results depend on the processing

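Stricter rules kept fewer regions with a larger share in exons. Requiring the peaks of each animal to cover at least 50% of the region left 4226 regions in 3225 genes. Peaks with −log10 q of 5 or more gave 7864 regions, with 46.6% in the CDS, 29.2% in the 3′UTR, 9.13% in introns and 12.1% outside protein-coding genes. Equal numbers of top peaks per animal left 6561 regions in 4538 genes, with 47.8%, 29.1% and 2.79% in the CDS, 3′UTR and 5′UTR, 8.32% in introns and 12.1% outside. Placing the 3′UTR and 5′UTR before the CDS gave 37.95% in the CDS, 31.8% in the 3′UTR and 4.02% in the 5′UTR, and the centre of the region gave 40.8%, 29.01% and, in introns, 13.02%. GGAC lay in 31.0% of the shorter windows (51 bp) and in 70.1% of the longer ones. Without mice A and B, an alternative chosen after seeing the data, the shares were 41.0% (CDS), 25.4% (3′UTR), 4.57% (5′UTR), 13.3% (introns) and 15.7% (outside), and the differences in peak length were -22.3 bp for KI minus WT and -3.82 bp for trained minus naive, against 1.5 and 6.83 bp with all animals.

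Of 403 refits of the 13 limma contrasts 394 kept a count of 0 regions past the threshold. Trained minus naive had 1 with members only, with no centring, and with quantile normalization, KI trained minus naive at 8 months had 2 with members only, and 8 minus 5 months had 1 without mice A and B. The cause was not tested.

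Leaving out 1 animal at a time, the CDS held 41.0% to 43.4%, the 3′UTR 25.9% to 27.9%, the 5′UTR 2.99% to 4.75%, introns 12.1% to 13.3% and places outside 13.8% to 15.6%. The counts past the threshold were 0 to 1 for trained minus naive (1 without 1 of the WT naive or 1 of the KI trained mice of 5 months), 0 to 1 for 8 minus 5 months (1 without mouse B) and 0 to 2 for KI trained minus naive at 8 months (2 without 1 of the KI naive mice of 8 months). The log2 difference of trained minus naive was -0.0085 to 0.0203. The difference in peak length was -14.9 to 23.96 bp for KI minus WT and -9.37 to 29.5 bp for trained minus naive. The share of peaks in members differed by -6.98 to -4.68 points for KI minus WT, 3.396 to 5.76 for trained minus naive and -6.01 to -3.66 for 8 minus 5 months. No paired analysis was possible because only the IP and the input of an animal share a number, the inputs have no file here, and no animal was in more than 1 condition.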

Other observations

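Further gene lists were described in the same way. Of 26 E3 ubiquitin ligases 21 held a constitutive region (80.8%, against 53.3% of all genes with a region and 68.9% of those in the longest quartile), with 37 members. Ube3a, the gene of Angelman syndrome, held 4, and Fbxw7, Rnf165 and Mycbp2 held 3 each, while Ube3b, Ubr4, Mib1, Mib2 and Cul4a held none. Of 30 neuronal RNA-binding and splicing proteins 17 held one, which was 60.7% of the 28 with a region and below the 68.9% of the longest quartile, with 30 members, of which 3 lay in the CDS, 12 in the 3′UTR, 2 in the 5′UTR and 13 in introns. Stau2, a protein of dendritic RNA transport, held 5, Rbfox1 held 4, and Celf2 and Celf4 held 3 each.

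Of 26 genes of neurotrophin and CREB signalling and of Huntington's disease 20 held a constitutive region, and 25 had a region in some animal. The phosphodiesterase genes Pde10a, Pde4d and Pde2a held 5, 3 and 3, and the neurotrophin receptor gene Ntrk3 held 3. Htt, the gene that carries the expansion in KI mice, had 7 regions, of which the most recurrent was called in 19 animals, so none was a member.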
